A study of Mus musculus with 6 samples.

Results

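Chemokine receptors are G protein-coupled receptors that steer migrating leukocytes along gradients of small secreted proteins, and the 9 receptors described here are Ccr2, Ccr4, Ccr6, Ccr7, Ccr9, Cxcr3, Cxcr4, Cxcr5 and Cxcr6. They were measured in early thymic progenitors with and without Tcf1. They were taken as all probe sets that the platform annotation gives to 1 of these symbols, which were 17 of the 45037 probe sets tested and 9 of 18193 genes. The set pairs receptors that guide progenitors into and within the thymus with receptors better known from innate and mature lymphocytes. The receptors were selected on their levels in these same 6 arrays, with the comparison of genotypes in view, so the genotype differences of the 9 receptors are given as a description and no test is drawn from them.

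RNA was measured on 6 mouse genome-wide expression arrays, which give 1 value per probe set, a group of short probes for a transcript. The arrays carried RNA of thymocytes sorted as negative for lineage markers and CD25 and positive for CD44 and kit, from C57Bl/6 mice of 10 weeks. There were 3 arrays of Tcf1-/- mice, which lack the transcription factor Tcf1, and 3 of Tcf1-/+ mice, which keep 1 intact copy. The titles name the second group Tcf1-/+ while another label field calls it wild type, and the titles are followed here. The labels call the arrays biological replicates and do not state the number of animals behind each.

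Progenitors that arrive from the bone marrow use Ccr9, Ccr7 and Cxcr4 to enter the thymus and to move through it, following ligands made by thymic stroma. Ccr6, Cxcr5 and Cxcr6 are known from innate lymphoid cells and from mature lymphocyte subsets, Ccr2 from monocytes and some innate lymphoid cells, and Ccr4 and Cxcr3 from differentiated T cells. Tcf1 binds DNA at TCF/LEF motifs and is needed for normal T-cell development from these progenitors.

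The receptors fell into 3 kinds. All 3 Tcf1-/- values of Ccr9 lay below all 3 Tcf1-/+ values on both probe sets designed from its RefSeq transcript. On its other probe sets, the brightest among them, the genotypes overlapped. Cxcr6, Ccr6 and Cxcr5 were higher in every Tcf1-/- array. Cxcr4 lay at nearly the same level in both genotypes, Ccr7 and Ccr2 had higher Tcf1-/- means with arrays that overlapped on their brightest probe sets, and Ccr4 and Cxcr3 lay near background.

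The RefSeq promoter table held 8 promoters of 7 of the 9 receptors, each from 250 bases before to 50 bases after a transcription start. Ccr7 and Cxcr5 were not in it. The promoters of Ccr9, Cxcr6 and Ccr6 are shown because, among receptors with a promoter entry, their values lay furthest apart between genotypes, with Ccr9 taken on its probe set 1421919_a_at. Capitals mark matches, on either strand, to the TCF/LEF letters CTTTGAA, also CTTTGAT, also CTTTGTA, also CTTTGTT, and to the E-box letters CAGGTG, also CAGCTG, which are read by E proteins. All are from GRCm38.p6 and are written 5′ to 3′ on the gene's strand, which is the plus strand for each. The Ccr9 promoter lies at chr9:123766961-123767260, the Cxcr6 promoter at chr9:123806227-123806526 and the Ccr6 promoter, the outer of its 2 entries, at chr17:8235793-8236092.
Ccr9: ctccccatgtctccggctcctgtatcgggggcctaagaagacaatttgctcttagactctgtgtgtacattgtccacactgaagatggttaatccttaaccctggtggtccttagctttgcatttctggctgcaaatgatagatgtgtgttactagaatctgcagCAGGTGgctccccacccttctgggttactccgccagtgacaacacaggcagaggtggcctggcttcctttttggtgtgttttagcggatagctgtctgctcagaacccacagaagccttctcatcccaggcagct
Cxcr6: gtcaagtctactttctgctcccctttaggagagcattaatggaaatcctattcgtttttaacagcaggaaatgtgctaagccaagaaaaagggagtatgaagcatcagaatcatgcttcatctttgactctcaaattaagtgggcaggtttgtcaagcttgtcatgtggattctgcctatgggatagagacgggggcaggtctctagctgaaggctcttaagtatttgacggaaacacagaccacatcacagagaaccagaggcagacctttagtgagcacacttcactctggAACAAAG
Ccr6: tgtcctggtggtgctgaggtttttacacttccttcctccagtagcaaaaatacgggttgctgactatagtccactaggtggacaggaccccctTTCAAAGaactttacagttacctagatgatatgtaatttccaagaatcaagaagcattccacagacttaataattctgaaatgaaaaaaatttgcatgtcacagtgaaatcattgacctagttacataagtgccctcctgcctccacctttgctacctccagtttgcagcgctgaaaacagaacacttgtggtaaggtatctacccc
The Ccr9 window held an E-box match that begins 85 bases before the start, and no TCF/LEF letters. The Cxcr6 window held AACAAAG, a TCF/LEF match on the other strand, 43 bases after the start, and the Ccr6 window held TTCAAAG, likewise on the other strand, 157 bases before it. The other Ccr6 entry, chr17:8242276-8242575, held no match to either motif. Of the 8 promoters, 5 held a TCF/LEF match and 3 an E-box match, and in 0 of them did the motifs overlap. The TCF/LEF matches not shown were in the promoters of Ccr4, Cxcr3 and Ccr2, and the E-box matches not shown in those of Ccr4 and Cxcr3. Of these receptors, Ccr4 and Cxcr3 lay near background and Ccr2 overlapped between genotypes on its brightest probe set. The Cxcr4 promoter held no match to either motif. Among all 32851 promoters of this length in the table, 16.9% held the TCF/LEF letters and 32.9% the E-box letters. A match describes the sequence and does not show that a factor binds there.

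Levels are given on the log2 scale as deposited, where 1 unit is a doubling of the signal. The 95th percentile of the control probe sets for Bacillus transcripts, 5.21, was taken as background. Genotypes were compared within a probe set. Levels of different probe sets were set side by side to choose the brightest of a gene. The mean level of a marker list is taken over the brightest probe sets of its genes.

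Of the thymus-homing receptors, Ccr9, which binds Ccl25 made by thymic epithelium, is covered by 5 probe sets. On 1421919_a_at, designed from the RefSeq transcript, Ccr9 was at 5.36, 4.53 and 4.78 in Tcf1-/- (replicates 1, 2 and 3, the order kept throughout) and at 7.65, 8.38 and 7.67 in Tcf1-/+. The genotypes were separated by 2.29 log2 units, and Tcf1-/- replicates 2 and 3 lay under background. The means were 4.89 ± 0.43 (SD, n = 3) and 7.90 ± 0.42 (SD, n = 3), which is a difference of -3.01 (95% interval from limma -3.82 to -2.21). With values under background set to it, the level was 6.24-fold lower in Tcf1-/-.

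The other Ccr9 probe set designed from that transcript, 1421920_a_at, was at 5.37, 5.19 and 4.95 in Tcf1-/- and at 6.90, 7.26 and 5.78 in Tcf1-/+. It also did not overlap between genotypes, and its difference was -1.48 (SE 0.41; this and later SEs are limma's). On 1427419_x_at, whose suffix marks probes that may also bind other transcripts, the levels were 3.33, 5.61 and 2.95 against 7.09, 7.02 and 5.03, and only Tcf1-/- replicate 2 reached into the Tcf1-/+ range. Its difference was -2.42 (SE 0.89), and -1.10 with values under background set to it.

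The remaining Ccr9 probe sets, like 1427419_x_at designed from other sequence records, showed little separation. On 1442758_at the levels were 6.69, 6.39 and 5.39 in Tcf1-/- and 7.01, 6.71 and 6.21 in Tcf1-/+, with a difference of -0.49 (SE 0.41) and arrays that overlapped. On 1436065_at both means lay under background and the difference was -0.22 (SE 0.40). All 5 means were thus lower in Tcf1-/-, by amounts that ran from -0.22 to -3.01. In counts over genes, each gene stands with its brightest probe set. For Ccr9 this is 1442758_at, whose mean over all arrays of 6.40 is close to the 6.39 of 1421919_a_at, so those counts hold the smaller difference.

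Ccr7, the receptor for Ccl19 and Ccl21, was at 6.86, 8.85 and 6.997 in Tcf1-/- and at 5.89, 7.02 and 5.58 in Tcf1-/+. Replicate 2 was the highest array of each genotype, and the Tcf1-/+ one reached the level of the other two Tcf1-/- arrays. The means were 7.57 ± 1.11 (SD, n = 3) and 6.16 ± 0.76 (SD, n = 3), so the difference was 1.40, its interval running from -0.20 to 3.00. The difference was 0.76 without Tcf1-/- replicate 2.

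Dendritic cells can carry Ccr7, and their markers also stood high on replicate 2 of each genotype. The mean level of the 10 measured dendritic markers was 8.31 on Tcf1-/- replicate 2 and 8.42 on Tcf1-/+ replicate 2, against 7.08 to 7.95 on the other four arrays. Zbtb46, a transcription factor of conventional dendritic cells, was at 8.61 and 7.98 on these arrays and at 5.79 to 6.44 elsewhere. The part of such cells in the Ccr7 level was not tested. In bulk RNA, fewer cells of a type and less RNA per cell cannot be told apart.

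Cxcr4, the receptor for Cxcl12 that retains progenitors in marrow and serves at several thymic stages, was at 13.02, 12.89 and 12.37 in Tcf1-/- and at 12.70, 13.04 and 12.98 in Tcf1-/+. The genotypes overlapped, and the 6 arrays spanned 0.67 log2 units. The difference was -0.15 with an interval of -0.76 to 0.46. Its level lay near the top of the scale of the array, whose highest value was 14.81.

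**Figure D1:**
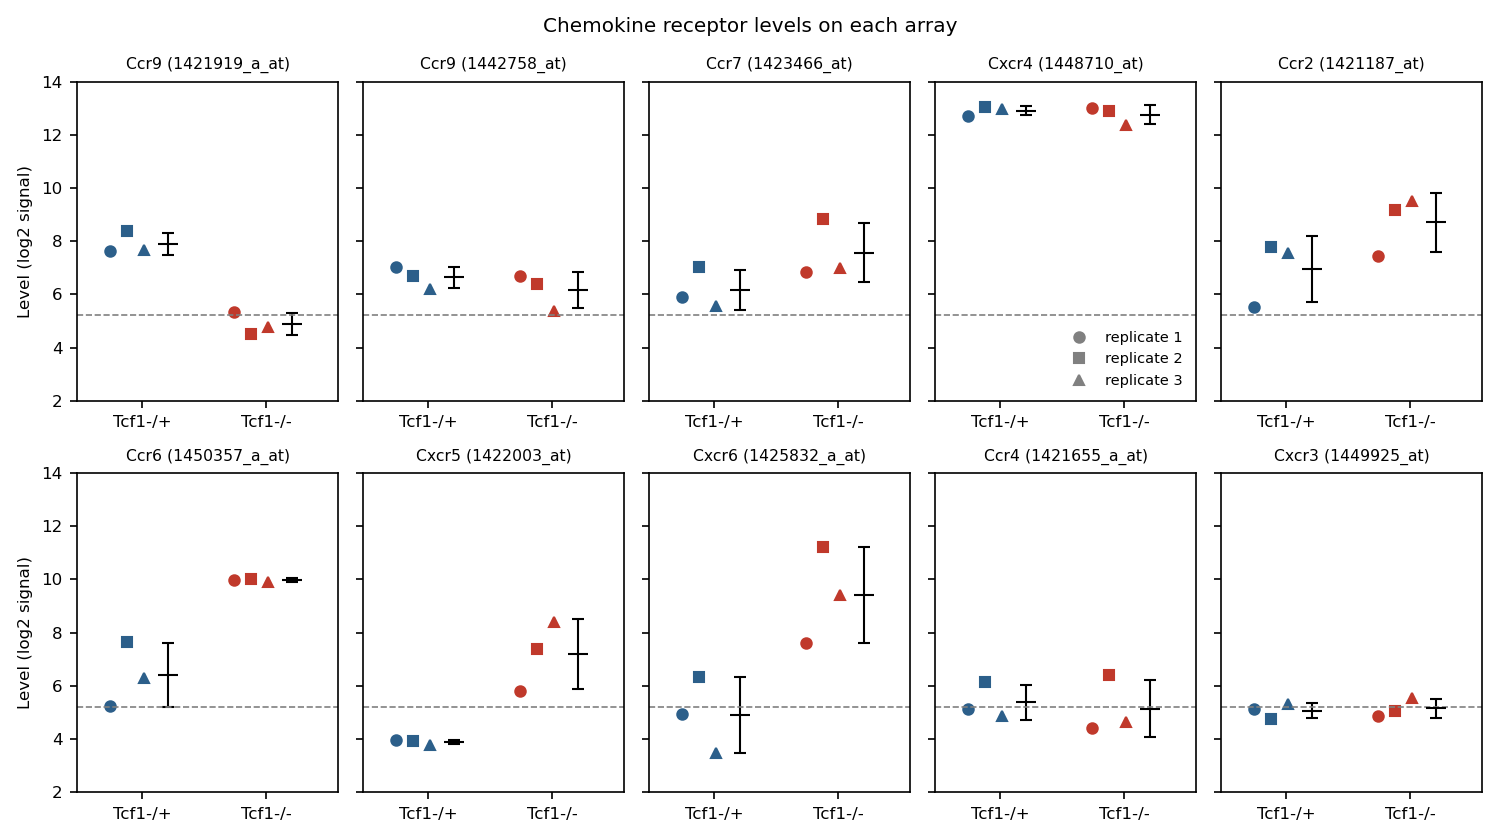
Level of each receptor on each array in log2 signal, with Tcf1-/+ in blue and Tcf1-/- in red, 1 symbol per replicate, and the mean with its SD in black beside them (n = 3 per genotype). The dashed line is the background level of 5.21. Ccr9 on 1421919_a_at is lower in all 3 Tcf1-/- arrays, Ccr6, Cxcr5 and Cxcr6 are higher in all 3, and Cxcr4 lies between 12.37 and 13.04 on all 6.

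Among the receptors of innate and mature lymphocytes, Cxcr6, the receptor for the membrane-bound chemokine Cxcl16, differed most. On 1425832_a_at it was at 7.62, 11.23 and 9.40 in Tcf1-/- and at 4.93, 6.34 and 3.49 in Tcf1-/+. The genotypes were 1.28 log2 units apart although the arrays within each genotype were spread widely, with replicate 2 the highest of both. The means were 9.42 ± 1.81 (SD, n = 3) and 4.92 ± 1.42 (SD, n = 3), a difference of 4.50 with an interval of 1.82 to 7.17. Among the 18193 genes, Cxcr6 held rank 6 by size of a higher Tcf1-/- mean.

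The other Cxcr6 probe set, 1422812_at, was designed from the RefSeq transcript and was at 8.02, 9.94 and 8.43 in Tcf1-/- against 3.37, 5.94 and 3.30 in Tcf1-/+. It separated the genotypes by 2.08 log2 units, with a difference of 4.60 (SE 0.87). Tcf1-/+ replicates 1 and 3 lay under background on both probe sets. With such values set to background the level was 14.2-fold higher in Tcf1-/- on 1425832_a_at and 10.1-fold higher on 1422812_at.

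Ccr6, the receptor for Ccl20, which marks lymphoid tissue inducer cells and some T-cell subsets, had the tightest Tcf1-/- values of the receptors. It was at 9.98, 10.04 and 9.89 in Tcf1-/- and at 5.27, 7.65 and 6.29 in Tcf1-/+, all above background. The 3 Tcf1-/- arrays spread by an SD of 0.07 around a mean of 9.97, and the Tcf1-/+ arrays by an SD of 1.20 around 6.40. The gap between genotypes was 2.24 log2 units and the difference was 3.56 with an interval of 2.12 to 5.004, an 11.8-fold higher level. Ccr6 held rank 16 among all genes by the size of a higher Tcf1-/- mean.

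Cxcr5, the receptor for Cxcl13 that draws lymphocytes into B-cell follicles and is carried by lymphoid tissue inducer cells, showed the reverse spread. It was at 5.79, 7.39 and 8.40 in Tcf1-/- and at 3.96, 3.93 and 3.80 in Tcf1-/+. All 3 Tcf1-/+ arrays lay under background and all 3 Tcf1-/- arrays above it. The means were 7.19 ± 1.31 (SD, n = 3) and 3.89 ± 0.08 (SD, n = 3), a difference of 3.30 (SE 0.64). Against the background level the signal was at least 3.95-fold higher in Tcf1-/-.

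Ccr2, the receptor for Ccl2 and related monocyte chemoattractants, had higher Tcf1-/- means on each of its 4 probe sets, by 0.89 to 1.74. On the brightest, 1421187_at, it was at 7.45, 9.16 and 9.52 in Tcf1-/- and at 5.54, 7.78 and 7.57 in Tcf1-/+. Tcf1-/- replicate 1 fell inside the Tcf1-/+ range, and the interval of the difference was -0.21 to 3.69. The genotypes did not overlap on 1460067_at, where the levels were 5.39, 5.40 and 6.81 against 5.10, 5.22 and 4.64, a gap of 0.18 log2 units.

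Ccr4, the receptor for Ccl17 and Ccl22, was at 4.41, 6.39 and 4.65 in Tcf1-/- and at 5.15, 6.13 and 4.88 in Tcf1-/+. Replicate 2 of each genotype was the only array of its group above background. The difference was -0.24 (SE 0.62). Cxcr3, the receptor for Cxcl9, Cxcl10 and Cxcl11, was at 4.85, 5.04 and 5.56 in Tcf1-/- and at 5.12, 4.76 and 5.33 in Tcf1-/+, with both means under background and a difference of 0.08 (SE 0.28). No direction can be given for either receptor.

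**Figure D2:**
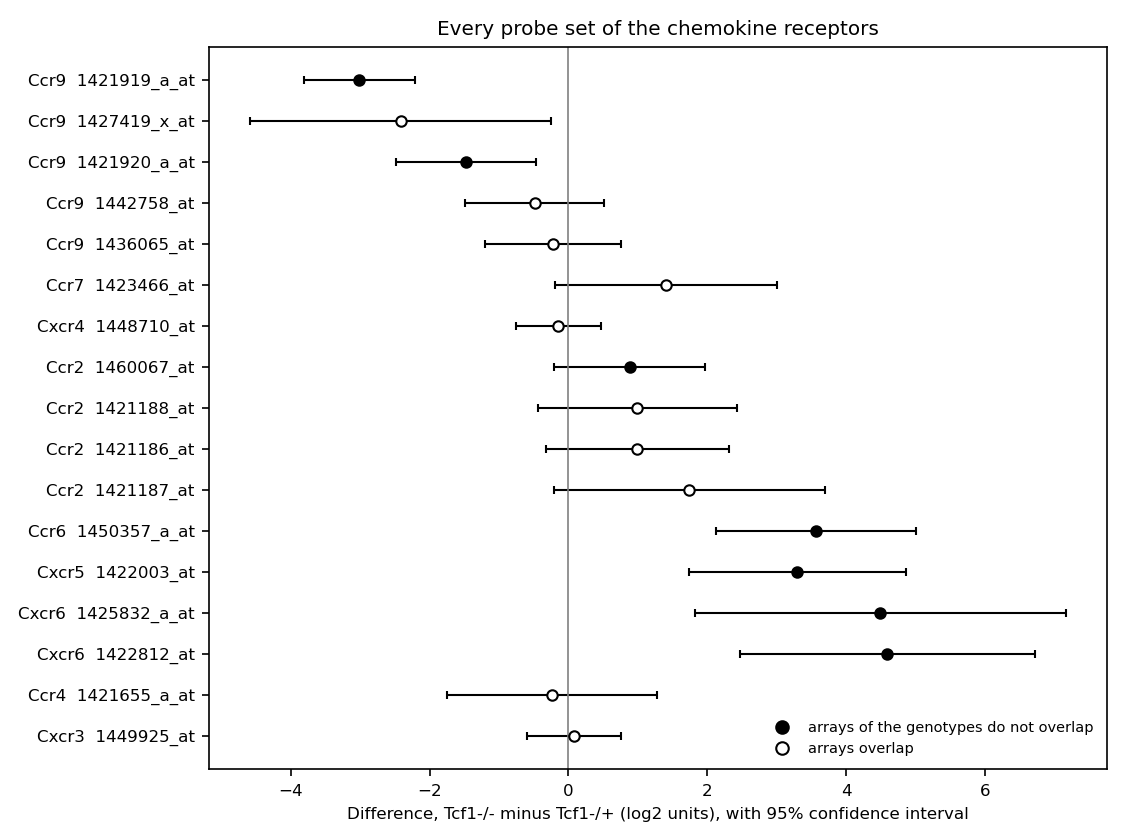
Difference between the genotype means of each of the 17 probe sets, in log2 units, with its 95% confidence interval from limma. Filled points are probe sets whose 3 Tcf1-/- and 3 Tcf1-/+ arrays do not overlap. They are 5 higher in Tcf1-/- (both of Cxcr6, those of Ccr6 and Cxcr5, and 1 of Ccr2) and 2 lower (2 of the 5 of Ccr9). The shares over all probe sets were 6.51% and 5.27%.

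Over the 17 probe sets, 10 had higher and 7 lower Tcf1-/- means. The genotypes did not overlap for 5 with higher and 2 with lower levels, where the shares over all probe sets were 6.51% and 5.27%. Over the 9 genes, 6 had higher and 3 lower means, and 3 did not overlap with higher and 0 with lower levels, where the shares over all genes were 7.22% and 4.94%. The median difference was 1.40 over the 9 genes and 0.04 over all genes. In limma over the whole table, 0% of probe sets passed an adjusted p of 0.05, none of the 17 among them, where the lowest adjusted p was 0.361, on 1421919_a_at of Ccr9. Of all probe sets, 2917 had an unadjusted p under 0.05, and an unmoderated test gave 2565 such and likewise 0 after adjustment. Since the receptors were chosen with this comparison known, nothing is read from these counts.

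Ccr9, Cxcr6 and Ccr2 lie in one stretch of chromosome 9, in the RefSeq order Lztfl1, Ccr9, Fyco1, Cxcr6, Xcr1, Ccr1, Ccr1l1, Ccr3 and Ccr2. Neighbours there differed in unlike ways. Fyco1, which encodes an adaptor of vesicle transport and lies between Ccr9 and Cxcr6, differed by 1.55 without overlap on the brighter of its probe sets, while the other gave -0.21. Xcr1, the receptor gene on the far side of Cxcr6, differed by -0.57 (SE 0.45). Ccr1, next after it and a receptor of inflammatory chemokines, was at 5.50, 7.63 and 5.53 in Tcf1-/- and at 3.44, 3.25 and 3.14 in Tcf1-/+, so that each Tcf1-/+ array lay under background. Ccr1l1 and Ccr3 lay under background in both genotypes. Of the 33 genes that lie within 2 protein-coding genes of a receptor and are not among the 9, 28 were measured, and their differences had a median of -0.04 and ran from -1.54 to 2.94.

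**Figure D3:**
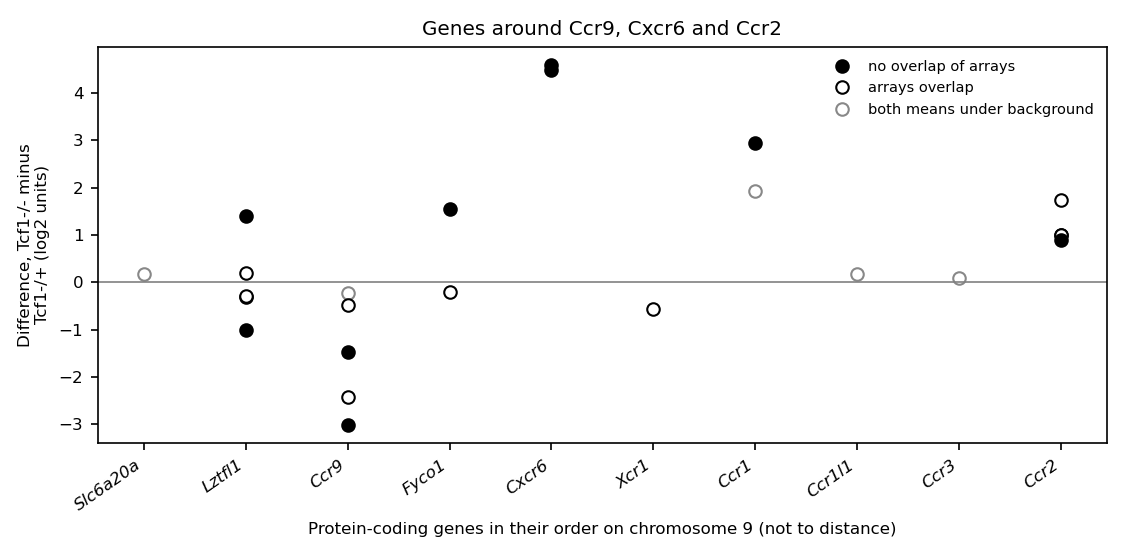
Difference between genotype means in log2 units for each probe set of 10 neighbouring protein-coding genes on chromosome 9, placed by their order and not by distance. Filled points do not overlap between genotypes, open points do, and grey points have both means under background. Ccr9 lies at or below -0.22 on all 5 probe sets, Cxcr6 at 4.50 and 4.60, and the genes between and beside them lie on both sides of 0.

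The likeness of other genes to a receptor was measured as the root mean square distance, in log2 units, between values centred on their own mean over the 6 arrays. It was taken for receptors whose brightest probe set spanned at least 2 log2 units, against the other genes. For both, the mean of 1 genotype above background was enough, so Cxcr5 and Cxcr6, and among the genes named Dll1, Gm30873 and Hs3st3b1, entered through their Tcf1-/- levels alone. The genes nearest to Cxcr6 were Fgl2, which encodes a fibrinogen-like protein, at 0.65, Klrb1b, an inhibitory receptor gene of natural killer cells, also at 0.65, and Hs3st3b1 at 0.68. Nearest to Ccr6 were the syndecan gene Sdc4 at 0.35, Nrp1, a semaphorin co-receptor gene, at 0.45 and the adaptor gene Grb10 at 0.56. Cxcr5 lay nearest to Dll1, a Notch ligand gene, at 0.20, followed by Gm30873 at 0.44 and Pdcd1, which encodes the inhibitory receptor PD-1, at 0.48. Ccr7 lay nearest to Cpd at 0.17, Sh2d2a at 0.28 and Tmem176a at 0.29. Ccr2 lay nearest to Oas3, an interferon-induced gene, at 0.38, Rnf19b at 0.38 and Rad51d at 0.39. With 6 arrays in 2 genotypes, these distances describe shared levels on the arrays and nothing more.

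Other chemokine receptors, 14 measured, included 2 with no overlap and higher Tcf1-/- levels and 2 with lower ones, against the 7.22% and 4.94% of all genes given above. Their median difference was 0.14. Ccr1 was described with its neighbours, and against background its level was at least 2.01-fold higher in Tcf1-/- on that probe set. On its other probe set the genotypes overlapped, at 2.82, 7.01 and 4.52 in Tcf1-/- and at 2.96, 2.82 and 2.78 in Tcf1-/+, and Tcf1-/- replicate 2 alone lay above background. Ccrl2, a receptor that presents chemerin without signalling, was at 6.56, 7.09 and 5.89 in Tcf1-/- and at 4.96, 5.43 and 5.55 in Tcf1-/+. Ackr1, an atypical receptor that binds chemokines without G protein signalling, differed by -0.51 (SE 0.23). Ccr8, a receptor of some regulatory and type 2 T cells, overlapped between genotypes and stood highest on Tcf1-/- replicate 1, at 7.70, where the other two Tcf1-/- arrays lay at 4.61 and 5.52.

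Ligands of the 9 receptors, 14 measured, all overlapped between genotypes, and both means of 6 lay under background. Ccl25, the ligand of Ccr9, differed by -0.57 (SE 0.47) and Cxcl16, the ligand of Cxcr6, by -0.54 (SE 0.47). Cxcl12, the ligand of Cxcr4, lay at 4.56 to 5.03 on all 6 arrays, under background. Ccl22, a ligand of Ccr4, was at 7.97 on Tcf1-/+ replicate 2 and at 4.40 to 5.64 elsewhere. Over all genes, 7.22% did not overlap with higher and 4.94% with lower Tcf1-/- levels. With so few ligands, nothing is read from their overlap. The ligands of Ccr7, Ccl19 and the Ccl21 genes, had no probe set of 1 symbol and were not measured. Of 13 measured markers of thymic stroma, the tissue that makes several of these ligands, 11 had higher Tcf1-/- means, 2 of them without overlap. The shares over all genes were 54.3% and 7.22%. A genotype mean above background was found for 7 of the stromal markers. The stromal differences ran from -0.57 to 1.10. The lowest was that of Ccl25, which is on both lists, and the highest that of the keratin gene Krt5. The epithelial genes Foxn1 and Psmb11 lay at 4.75 to 5.43 and at 4.29 to 4.98.

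Of 33 measured genes that carry the signal of chemokine receptors, 3 did not overlap with higher and 1 with lower Tcf1-/- levels, where the shares over all genes were 7.22% and 4.94%. Their median difference was 0.03, beside 0.04 over all genes. Gnaq, a G protein alpha subunit gene, differed by 1.35 on its brightest probe set and by -2.43 on another, so it has no settled direction. Arrb1, which encodes a beta-arrestin that uncouples receptors, differed by 0.75 (SE 0.32) and Rap1b, a small GTPase gene of integrin activation, by 0.23 (SE 0.19). Pik3r5, the regulatory subunit gene of the PI3K that G proteins activate, differed by -0.66 (SE 0.22). Gnai2, an inhibitory G protein alpha subunit gene, differed by 0.11 on the brighter of its probe sets, while the other gave -0.99.

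**Figure D4:**
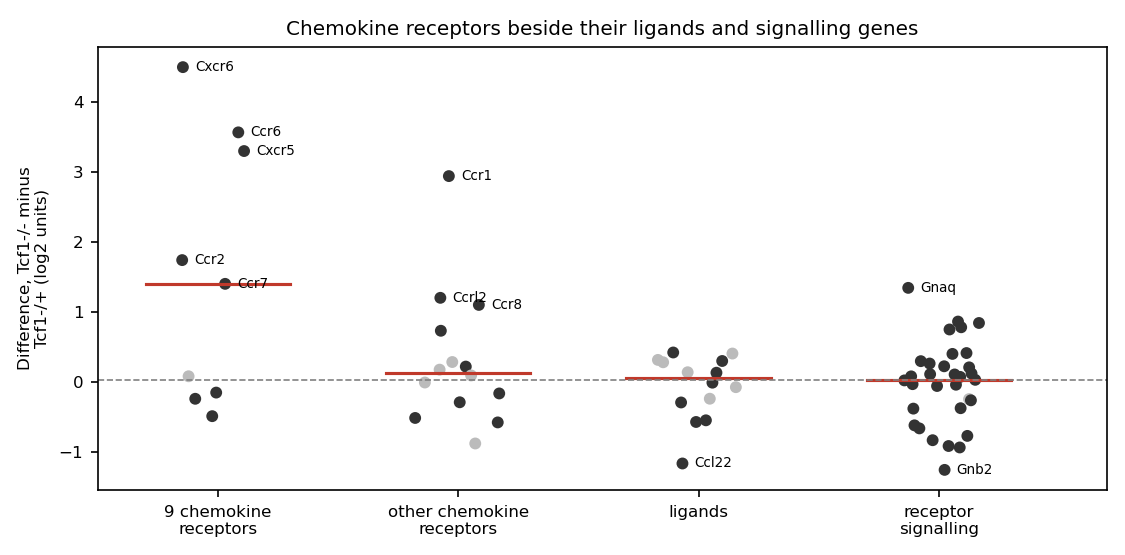
Difference between genotype means in log2 units for each gene of 4 lists, on its probe set of highest mean, so that Ccr9 is shown with its difference of -0.49. Red bars are list medians, the dashed line is the median of all genes at 0.04, grey points have both means under background, and the sideways spread of points has no meaning. Cxcr6, Ccr6, Cxcr5 and Ccr1 lie highest, and the ligands lie between -1.16 and 0.42.

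Markers of the gate and of other cells were read beside these receptors, and their part in the receptor differences was not tested. Kit was at 9.99, 7.45 and 9.60 in Tcf1-/- and at 10.80, 10.50 and 9.83 in Tcf1-/+, while Cd44 lay between 9.60 and 10.39 on all 6 arrays. Il2ra, which encodes CD25, lay between 9.22 and 10.97, well above background although the gate was CD25-negative. Of the 8 measured genes of the gate and of early progenitors, 3 had higher and 5 lower Tcf1-/- means. The genotypes did not overlap for 3 with lower levels, where the share over all genes was 4.94%. Among these were Cd34 and Flt3, genes of early progenitors, which were lower in every Tcf1-/- array. Tcf1-/- replicate 2, where Kit was lowest, had correlations of 0.870 to 0.893 with the other arrays, where other pairs reached 0.933. Without that array the differences were 3.59 and 4.02 for the 2 probe sets of Cxcr6, 3.53 for Ccr6, 3.20 for Cxcr5 and -2.84 for Ccr9 on 1421919_a_at.

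Beside Cxcr6, Ccr6 and Cxcr5, 14 natural killer and innate lymphoid markers were measured, of which 11 had higher and 3 lower Tcf1-/- means, where 54.3% of all genes had higher ones. For 6 the genotypes did not overlap, with higher Tcf1-/- levels, where the share over all genes was 7.22%, and 0 passed limma's adjusted threshold. The mean level of the list was 8.32, 8.53 and 8.56 in Tcf1-/- against 6.95, 7.35 and 7.17 in Tcf1-/+. The largest differences were those of the granzyme gene Gzmb at 4.06, the costimulatory receptor gene Icos at 3.22 and Id2, an inhibitor of E proteins, at 3.19. The lowest difference of the list was -0.75. Of the 14 markers, 12 had a genotype mean above background, among them the perforin gene Prf1 at 9.31 to 10.24 and the granule gene Nkg7 at 8.03 to 10.08. The 2 with both means under it were the natural killer genes Tbx21, at 4.37 to 5.47, and Ncr1, at 3.60 to 5.67. Eomes, a transcription factor of natural killer cells, was at 7.10 on Tcf1-/+ replicate 2. Of 13 myeloid markers measured beside Ccr2, 10 had higher Tcf1-/- means, with a list level of 6.86 to 8.21 against 6.40 to 7.90. A genotype mean above background was found for 10 of them, among them the granule enzyme gene Mpo at 12.37 to 13.84, the lysozyme gene Lyz2 at 8.75 to 10.33 and Csf1r, the receptor gene of macrophage growth factor, at 6.64 to 11.78. Adgre1, Itgam and Cd14 lay under background on all 6 arrays. Only 1 of the 13 myeloid markers, the granule gene Ngp, had no overlap, with a difference of 1.95, which is near the 7.22% over all genes. The differences of the list ran from -1.63 to 2.64. Of 10 B-lineage markers measured beside Cxcr5, 9 had higher Tcf1-/- means, with a list level of 5.95 to 6.23 against 5.50 to 5.91, and Ms4a1, which encodes CD20, lay at 3.69 to 4.23, under background. The kinase gene Blk was the B-lineage marker that differed most, by 2.44 (SE 0.63). The 6 measured erythroid markers had a median difference of 1.23, beside 1.16 for the natural killer and innate lymphoid markers. Their mean level was 7.04, 6.01 and 6.99 in Tcf1-/- against 4.76, 4.86 and 6.66 in Tcf1-/+.

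Y-linked signal was high on Tcf1-/- replicates 2 and 3 and Tcf1-/+ replicate 2 and low on the other arrays. It was thus unevenly spread over the genotypes. Its part in the differences was not tested beyond a fit with its level as a covariate. On the brightest probe sets that fit gave differences of 3.73 for Cxcr6, 3.20 for Ccr6, 3.02 for Cxcr5, 1.27 for Ccr2 and 1.01 for Ccr7. For the rest it gave -0.41 for Ccr9, -0.14 for Cxcr4, -0.60 for Ccr4 and 0.12 for Cxcr3. Within the low set, which holds 1 Tcf1-/- and 2 Tcf1-/+ arrays, the differences were 3.40 and 4.69 for the 2 probe sets of Cxcr6, 4.20 for Ccr6, 1.92 for Cxcr5 and -2.30 for Ccr9 on 1421919_a_at. Within the high set they were 3.98 and 3.25 for Cxcr6, 2.31 for Ccr6, 3.96 for Cxcr5 and -3.73 for Ccr9. The high set holds 2 Tcf1-/- arrays and 1 Tcf1-/+ array, so each set has 1 genotype with a single array. For Cxcr6, Ccr6, Cxcr5 and Ccr9 on 1421919_a_at the arrays of the genotypes did not overlap. Any set with both genotypes therefore keeps their direction, and nothing is read from it. Ccr9 on 1442758_at differed by 0.08 in the low set and on 1436065_at by 0.49 in the high set, against the direction over all arrays. Cxcr3, which lies on the X chromosome, differed by -0.37 in the first set and by 0.54 in the second.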

How the data were processed

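RNA of sorted early thymic progenitors was measured on 6 arrays. Per the labels' protocols, about 3 ng of RNA came from 1000 cells and was amplified, labelled with biotin and hybridized. The authors deposited 1 log2 value per probe set and array, a scale read from the range of 2.15 to 14.81. Their summarization and normalization are steps not given in the sources used here. Array medians lay between 5.80 and 5.87, and the values were used as deposited. Arrays have no read depth, and their number limits the precision. Unused columns of values numbered 0.

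Of 45101 probe sets, 64 controls were left out. The platform annotation gave 1 symbol to 34945 of the rest, several to 932 and none here to 9160, and 34741 matched a gene of the RefSeq table of GRCm38.p6, used for names and gene order. Each gene stands with its brightest probe set by the mean of 6 arrays. Tcf7, which encodes Tcf1, was not analysed here, so the labels were not checked on the targeted gene. The comparison used lmFit and eBayes of limma 3.58.1 under R 4.3.3, two-sided and without covariates, over all 6 arrays, with Benjamini-Hochberg adjustment over all probe sets at 0.05. The test was checked on simulated arrays. An exact permutation of 3 against 3 arrays cannot give a p below 0.1 and was not used. Differences are Tcf1-/- minus Tcf1-/+.

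The receptors, the lists of ligands, other receptors, signalling genes and cell markers, and the rules were chosen with earlier results of these data known. All 9 receptors are named. Of the lists of ligands, other receptors and signalling genes, the up to 3 genes of largest higher and lower mean, without overlap and above background in 1 genotype, are named. Any further gene, markers included, was chosen by its ligand role or after its values were seen. Of the marker lists, the 13 stromal markers had 11, the 6 erythroid 5, the 8 mature T-cell 4 and the 10 dendritic 4 higher Tcf1-/- means. Same-numbered arrays of the genotypes deviated together with correlations of 0.01 to 0.04, so the numbers were not taken as pairs. Alternatives were the replicate block, quantile normalization, array weights, a trended robust spread, an unmoderated test, a covariate for Y-linked level, the low and high Y-linked arrays alone, a filter and a floor at background, the mean of a gene's probe sets, and leaving out each array.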

Additional observations from a re-analysis of the deposited data

How the results depend on the processing

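Calls were counted for every planned fit except the floor at background. In each counted fit limma called 0 probe sets, as did the unmoderated test. At an unadjusted p under 0.05 there were 2477 to 3487 over the counted fits on all probe sets and 2201 on probe sets above background. Over the counted fits the lowest adjusted p ran from 0.125 without Tcf1-/- replicate 1 to 0.692 without Tcf1-/+ replicate 1. The replicate block also gave 0 probe sets, with a lowest adjusted p of 0.616, and changed no call. Of the 9 receptors, 6 or 7 had higher Tcf1-/- means under each of 13 alternatives. Cxcr6, Ccr6, Cxcr5, Ccr2 and Ccr7 kept their direction in all 15 alternatives on their representative probe sets. Their ranges were 3.40 to 5.40, 2.31 to 4.20, 1.92 to 3.997, 0.89 to 2.37 and 0.76 to 1.83. Several alternatives could not have turned a sign, so the count is no measure of support. The replicate block and the trended robust spread leave each difference as it was. For Cxcr6, Ccr6 and Cxcr5, whose arrays did not overlap, leaving out arrays also cannot turn the sign. The signs of Ccr4, Cxcr3 and Cxcr4 turned in 4, 3 and 2 of the alternatives, and that of Ccr9 on 1442758_at in 1, the arrays of low Y-linked signal, at 0.08. Ccr9 on 1421919_a_at, an alternative chosen after seeing the data, differed by -3.01, and leaving out single arrays gave -3.25 to -2.77. The cause of these shifts was not tested.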
